A study of Mus musculus with 12 samples.

Results

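Lipogenesis, the making of fatty acids from acetyl-CoA, was followed through 10 genes: Srebf1, Acly, Acaca, Fasn, Elovl6, the stearoyl-CoA desaturases Scd1, Scd2 and Scd4, and the regulators Thrsp and Mid1ip1. They were found by symbol among 27998 genes of the single-cell tables and by Entrez identifier among 40814 genes of the neurosphere count table, and all 10 were present in both. The genes were chosen by measured values of these data, namely the lower Scd4 counts of knockout cultures and the high level of Thrsp in stem cells, so the values of the 10 genes are given below as a description, with no test.

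The study deleted Larp7, which encodes a protein of the 7SK small nuclear ribonucleoprotein, in the mouse brain and examined the dentate gyrus, the part of the hippocampus that makes granule neurons around birth. Dentate gyri at postnatal day 7 gave 3 single-cell libraries. P7_WT came from mice labelled wild-type, and the study's text says that its wild-type controls were Larp7-floxed mice. P7_L7_Nestin came from Larp7 f/f;nestin-Cre mice, in which Cre acts across the nervous system and in some other organs. For P7_L7_Emx1 the genotype was Larp7 f/f;Emx1-Cre, and this Cre acts in stem and progenitor cells of the dorsal forebrain. Several dentate gyri of littermates were combined in each library, so each genotype is 1 sample. The library titles and another entry of the labels exchange the names of the Cre lines, and the titles were followed here. Neurospheres were grown from dentate gyri of postnatal day 1 WT mice, which carry floxed Larp7 without Cre (2 cultures), and Larp7 f/f;Emx1-Cre mice, called L7_KO (3 cultures). Their titles mark 2 days of differentiation. The culture notes of the labels give this time as spent on Matrigel in N2B27 medium with bFGF, whereas the study's text starts differentiation with growth factor withdrawal and serum, and the sources do not settle which of these the RNA followed.

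In the lipogenic pathway Acly makes acetyl-CoA from citrate, Acaca carboxylates it to malonyl-CoA and Fasn assembles palmitate. Elovl6 lengthens palmitate to stearate, and the Scd enzymes place a double bond in stearate to give oleate. Srebf1 encodes the transcription factor SREBP1, which drives these genes, while Thrsp (Spot14) and its paralog Mid1ip1 modulate the activity of acetyl-CoA carboxylase. Neural stem cells of the adult hippocampus are known to rely on lipogenesis, and astrocytes make much of the lipid of the brain.

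Cells with over 500 genes and under 15% mitochondrial counts numbered 10997 in wild-type, 6685 in the nestin-Cre mutant and 6531 in the Emx1-Cre mutant, with medians of 1782, 3644 and 3873 unique molecular identifiers (UMIs). Fixed marker genes placed 15582 of these 24213 cells in 10 classes, named RGL-like (radial glia-like stem cells), nIPC-like (neuronal intermediate progenitors), neuroblast-like, granule neuron-like, Cajal-Retzius-like, astrocyte-like, OPC-like (oligodendrocyte precursors), microglia-like, perivascular macrophage-like and endothelial-like. Of the 10 leading genes of a class, 3 (granule neuron-like) to 9 (OPC-like) were its own markers. This follows from the gate, which placed cells by these markers, and is no separate check of the names. Only 4 of 9 granule neuron markers were seen in at least 10% of the cells given that name. The wild-type library stood apart: it was shallower, and 1146 of its cells were set aside for haemoglobin genes, against 8 and 36 in the mutants. Libraries shared 11 to 23 cell barcodes pairwise. Larp7 in the mutants was 0.118 to 0.240 times wild-type in RGL-like, nIPC-like, neuroblast-like and astrocyte-like cells and 0.581 and 0.626 times in microglia-like cells. This separates the mutant libraries from wild-type but not 1 Cre line from the other.

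The desaturase genes lie in 1 cluster of 204422 bases on mouse chromosome 19 (GRCm38.p6), in the order Scd3, Scd2, Scd4 and Scd1. Scd2 spans chr19:44293676-44306864 on the plus strand, Scd4 chr19:44333326-44346743 on the plus strand and Scd1 chr19:44394450-44407709 on the minus strand. The gap from Scd2 to Scd4 is 26461 bases and that from Scd4 to Scd1 is 47706 bases. Thrsp lies elsewhere, at chr7:97412933-97417550 on the minus strand. RefSeq promoter windows, from 250 bases before to 50 bases after a start site, were available for 8 of the 10 genes in 10 windows, with Scd1 and Scd2 the missing entries. The 250 bases before the start are shown for Scd4, whose counts differ most between neurosphere genotypes, for Thrsp, which was higher in RGL-like than in any other class in every library, and for Fasn, the central enzyme. For Fasn this start site lies inside the RefSeq span of the gene, chr11:120805958-120825166 on the minus strand, and not at the upstream end of that span. Capitals mark CCAAT or its reverse complement ATTGG.

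Scd4, chr19:44333076-44333325, plus strand: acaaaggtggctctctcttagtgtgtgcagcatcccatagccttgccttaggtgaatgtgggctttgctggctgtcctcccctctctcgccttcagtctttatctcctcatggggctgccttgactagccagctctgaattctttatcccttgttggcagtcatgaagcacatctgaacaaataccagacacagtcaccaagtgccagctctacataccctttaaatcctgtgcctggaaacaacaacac
Thrsp, chr7:97417551-97417800, minus strand: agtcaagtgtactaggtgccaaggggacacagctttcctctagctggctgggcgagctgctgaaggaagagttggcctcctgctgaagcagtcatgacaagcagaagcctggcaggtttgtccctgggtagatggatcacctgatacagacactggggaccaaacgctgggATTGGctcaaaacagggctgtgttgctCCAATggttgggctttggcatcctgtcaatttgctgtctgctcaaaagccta
Fasn, chr11:120824548-120824797, minus strand: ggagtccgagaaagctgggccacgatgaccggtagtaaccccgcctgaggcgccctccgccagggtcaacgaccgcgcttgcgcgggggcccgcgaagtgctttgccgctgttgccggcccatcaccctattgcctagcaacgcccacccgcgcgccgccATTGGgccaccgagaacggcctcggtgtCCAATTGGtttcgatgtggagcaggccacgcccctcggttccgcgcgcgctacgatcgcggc

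Scd4 held no CCAAT box in these bases, Thrsp held 2 and Fasn held 3, the latter 2 of them overlapping. Over whole windows of 300 bases and on both strands, CCAAT was present in 5 of the 10 windows, beside 37.4% of all 32851 windows. These belong to 4 of the 8 genes (Acly, Fasn, Srebf1 and Thrsp). The GC box GGGCGG was present in 4 of the 10 windows, for Acly, Mid1ip1 and Srebf1, and in 35.7% of all windows. The E-box CACGTG (7.15% of all windows) and the sterol response element TCACNCCAC (1.24%) were in none of the 10 windows. These matches describe letters in the window and are not evidence of binding.

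Across the P7 classes, the members followed 3 patterns. Scd1, Scd2, Fasn, Srebf1 and Mid1ip1 were highest in astrocyte-like cells, with RGL-like cells next by mean. For Scd1 and Fasn the RGL-like range overlapped that of OPC-like cells. Thrsp was highest in RGL-like cells. Elovl6 and Acaca had their highest mean in granule neuron-like cells and Acly in nIPC-like cells, each overlapping the next class. The summed members took 26.9 to 28.0 of every 10000 UMIs in astrocyte-like cells and 20.1 to 24.8 in RGL-like cells over the 3 libraries. They took 8.42 to 9.28 in nIPC-like and 7.11 to 7.58 in neuroblast-like cells, so their share was lower in each library along the order from stem cell to neuroblast. Values below are the summed UMIs of a gene in a class scaled by all UMIs of that class (CPM), in the order wild-type, nestin-Cre mutant and Emx1-Cre mutant, and intervals are exact 95% intervals that cover counting error only.

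**Figure D1:**
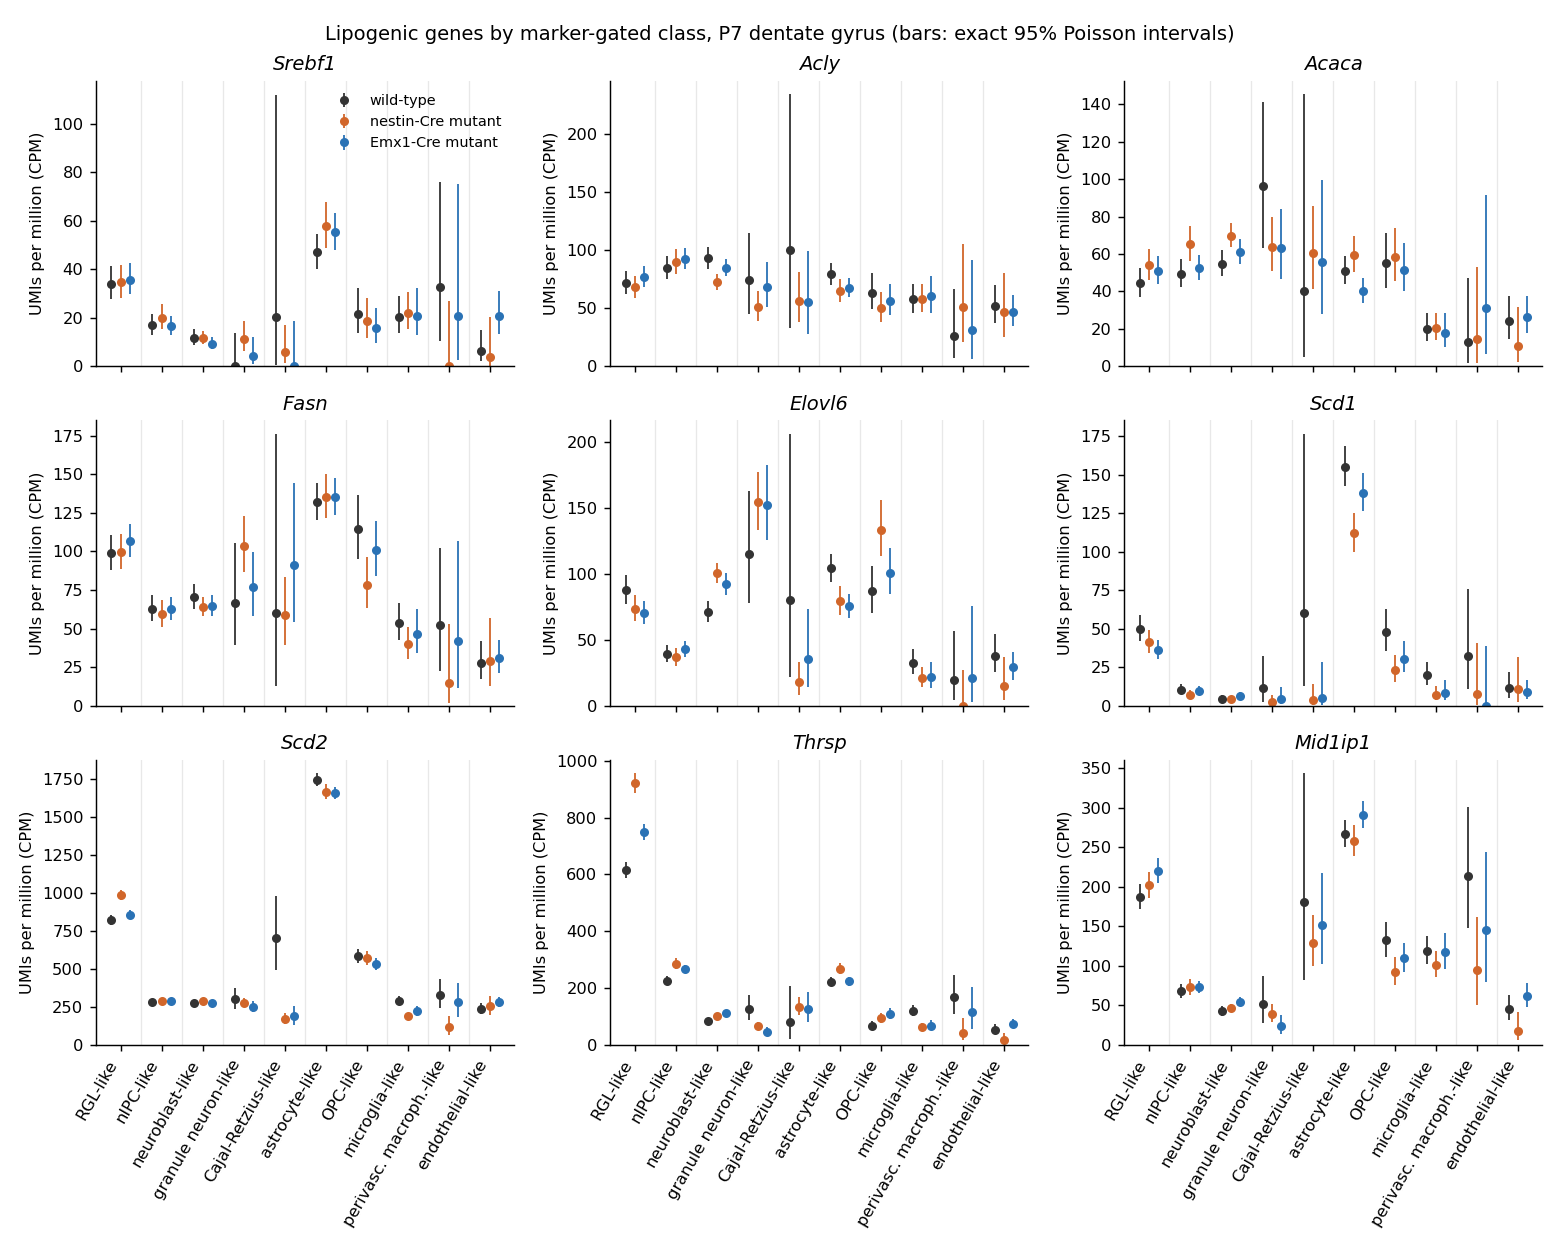
Level of 9 members (CPM) in 10 marker-gated classes of the P7 dentate gyrus. Points are single libraries and bars exact 95% Poisson intervals for counting error. Scd2 lies at 1657 CPM or more in astrocyte-like cells and Thrsp at 616 CPM or more in RGL-like cells in every library.

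Srebf1, the transcription factor at the head of the pathway, stood at 47.0, 57.6 and 55.1 CPM in astrocyte-like cells and at 33.9, 34.6 and 35.6 CPM in RGL-like cells. Those ranges do not overlap, and the microglia-like range of 20.3 to 22.1 CPM lies below both. Levels were lower in the neuronal lineage, with 16.4 to 20.0 CPM in nIPC-like and 9.22 to 11.7 CPM in neuroblast-like cells. No Srebf1 UMI was seen in the 86 wild-type granule neuron-like cells, which allows up to 11.1 CPM.

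The enzymes that supply and join the carbon units varied less between classes. Acly stood at 84.7, 90.0 and 92.8 CPM in nIPC-like cells and at 71.4, 68.1 and 76.8 CPM in RGL-like cells. Most neighbouring classes overlapped in range, and the lowest mean was 36.1 CPM in perivascular macrophage-like cells. Acaca stood at 44.4, 54.0 and 50.9 CPM in RGL-like cells against 54.8, 69.8 and 61.2 CPM in neuroblast-like cells. The 7 neural classes overlapped for Acaca from one to the next, and all lay above the 17.6 to 20.2 CPM of microglia-like cells. Fasn stood at 132, 135 and 136 CPM in astrocyte-like cells and at 98.9, 99.7 and 107 CPM in RGL-like cells, with no overlap between the 2 classes. In nIPC-like cells Fasn was 62.7, 59.5 and 62.7 CPM, so RGL-like cells held 1.58 to 1.70 times that level.

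Elovl6, which turns palmitate into stearate, had its highest level in granule neuron-like cells in each library. Its level was 87.3, 73.4 and 70.4 CPM in RGL-like cells, 39.1, 36.5 and 42.9 CPM in nIPC-like cells and 115, 154 and 152 CPM in granule neuron-like cells. Granule neuron-like cells thus held 2.94 (1.92 to 4.37), 4.23 (3.33 to 5.39) and 3.55 (2.79 to 4.49) times the nIPC-like level. The lowest of the lineage was the nIPC-like class in each library, and neuroblast-like cells, at 70.9, 101 and 92.0 CPM, lay between it and granule neuron-like cells.

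Scd2, the main desaturase of the brain, was detected in nearly every astrocyte-like cell, with a UMI in 89.6%, 96.6% and 96.8% of them. It stood at 1746, 1667 and 1657 CPM in astrocyte-like cells, 819, 986 and 856 CPM in RGL-like cells and 587, 570 and 533 CPM in OPC-like cells. Those 3 ranges do not overlap. The nIPC-like, neuroblast-like and granule neuron-like classes were close together at 253 to 300.2 CPM. Microglia-like cells, which serve here as a class of another lineage, still held 290, 190 and 222 CPM, and a Scd2 UMI was seen in 36.9% to 41.0% of them against 63.1% to 71.3% of nIPC-like cells. After thinning every cell to 1500 UMIs the shares were 20.6% to 26.3% and 33.2% to 36.1%.

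Scd1, the desaturase best known from liver and skin, was more uneven between classes. It stood at 155, 112 and 138 CPM in astrocyte-like cells, 49.8, 41.1 and 35.9 CPM in RGL-like cells and 10.3, 6.57 and 9.26 CPM in nIPC-like cells. The nIPC-like values are near those of microglia-like cells, 19.7, 6.94 and 8.30 CPM, and no fold is drawn against them. RGL-like cells held 0.321 (0.266 to 0.386), 0.368 (0.296 to 0.455) and 0.260 (0.212 to 0.316) times the astrocyte-like level. A Scd1 UMI was present in 29.0% to 39.4% of astrocyte-like cells, 13.7% to 15.6% of RGL-like cells and 1.21% to 2.39% of neuroblast-like cells. The last share is below that of microglia-like cells, 2.01% to 4.25%, and is read as background. After thinning to 1500 UMIs, the share of astrocyte-like cells was 11.6% to 18.5% and that of RGL-like cells 5.05% to 6.82%.

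Scd4 was almost absent from the single-cell data. The 10 classes together held 1 Scd4 UMI in wild-type, 5 in the nestin-Cre mutant and 8 in the Emx1-Cre mutant, and no class exceeded 1.09 CPM. No UMI was seen in 897 wild-type RGL-like cells, which allows up to 1.02 CPM, or in 1094 wild-type astrocyte-like cells, which allows up to 0.834 CPM. Its relative Scd3 held 3, 8 and 7 UMIs. Genotypes could not be compared for either gene at this depth.

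Thrsp, the modulator of acetyl-CoA carboxylase, stood at 616, 921 and 750 CPM in RGL-like cells. It was 226, 285 and 267 CPM in nIPC-like cells and 222, 268 and 224 CPM in astrocyte-like cells, which overlap each other and lie below the RGL-like range in every library. RGL-like cells held 2.72 (2.50 to 2.96), 3.23 (2.99 to 3.49) and 2.81 (2.63 to 3.01) times the nIPC-like level and 7.34, 9.10 and 6.72 times the neuroblast-like level. That neuroblast-like level, 83.8, 101 and 111.5 CPM, was near the microglia-like level of 121, 64.9 and 68.5 CPM and may include background. A Thrsp UMI was seen in 65.3%, 85.0% and 81.5% of RGL-like cells, against 17.0%, 8.50% and 12.96% of microglia-like cells. In cells thinned to 1500 UMIs, the shares were 50.8%, 64.0% and 57.5% of RGL-like cells and 8.94%, 4.35% and 8.58% of microglia-like cells. With Leiden clusters in place of the marker gate, the RGL-like to nIPC-like difference in wild-type was 0.65 on the log2 scale instead of 1.44.

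Mid1ip1, the paralog of Thrsp, did not share its order. It stood at 267, 258 and 291 CPM in astrocyte-like cells, 188, 202 and 220 CPM in RGL-like cells and 67.8, 72.9 and 73.2 CPM in nIPC-like cells. RGL-like cells held 2.76, 2.77 and 3.01 times the nIPC-like level, close to the ratios of Thrsp, but 0.702, 0.781 and 0.756 times the astrocyte-like level, where Thrsp was 2.77, 3.43 and 3.35 times higher. Mid1ip1 was also present outside the neural lineage, at 119, 101.5 and 117 CPM in microglia-like cells.

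RGL-like cells were split into dividing cells, with a UMI of at least 2 of 8 mitotic genes, and non-dividing cells with none. Scd2 stood at 574 CPM in dividing and 1040 CPM in non-dividing wild-type RGL-like cells, a ratio of 0.552 (0.503 to 0.606), and at ratios of 0.507 (0.461 to 0.556) and 0.488 (0.449 to 0.530) in the mutants. Thrsp differed less, with ratios of 0.814 (0.734 to 0.902), 0.790 (0.722 to 0.863) and 0.951 (0.874 to 1.04). Acly, which feeds the pathway, was at 1.21 (0.889 to 1.64), 1.03 (0.746 to 1.42) and 1.12 (0.866 to 1.46) times the non-dividing level. Each of these Acly intervals includes 1. The lower Scd2 of dividing cells was also seen in astrocyte-like cells, with ratios of 0.587, 0.684 and 0.587. Within nIPC-like cells Scd2 ratios were 0.903, 0.993 and 0.944.

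The genes whose levels most resembled a member over the 30 combinations of class and library were found by Pearson correlation of log2(CPM + 10) among 12941 genes. These points share libraries and depth, so the correlations are a description. For Scd2 they were Fads2 (r = 0.961), a fatty acid desaturase, the astrocyte adhesion gene Hepacam (0.951), Gpm6b (0.946), the GABA transporter gene Slc6a11 and the acyl-CoA thioesterase gene Acot1 (0.933). For Scd1 they were Fgfr3 (0.966), which is one of the astrocyte markers of the gate, Ppp1r3c (0.927), AI464131 (0.915), Scd2 (0.913) and Fam69c (0.911). For Thrsp they were Ndufc2 (0.902), Veph1 (0.878), an RGL marker of the gate, the stem cell transcription factor Pax6 (0.870), Fam210b (0.870) and Rgs20 (0.861). Among the members themselves, Scd2 was most like Scd1, then Srebf1 (0.789) and Fasn (0.751), while Acaca was most like Elovl6 (0.753).

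Other lipid genes were higher in RGL-like than in nIPC-like cells as well. Of the members with at least 100 UMIs over both classes, 7 of 9 were at least 1.5-fold higher in RGL-like cells in each library, and Thrsp was among the values that led to their choice. Of all genes, 18.6%, 22.3% and 20.6% passed that limit. Cholesterol synthesis genes passed it in 18 of 21, 19 of 22 and 20 of 22 cases, with median log2 ratios of 1.36, 1.52 and 1.47 against -0.03, 0.00 and -0.01 for all genes. The exception below the limit in the opposite direction was Ebp, a sterol isomerase gene, at -1.004, -1.019 and -0.84, named after its values were seen. Of the other fatty acid synthesis genes, 11 of 18, 11 of 20 and 13 of 20 passed, and Me1, which supplies NADPH, and Fads2 named after their values were seen, had the largest log2 ratios in wild-type, 1.90 and 1.76. Fatty acid uptake and oxidation genes passed in 8 of 15, 13 of 15 and 11 of 15 cases, and thyroid hormone handling genes in 2 of 6, 3 of 6 and 4 of 6.

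**Figure D2:**
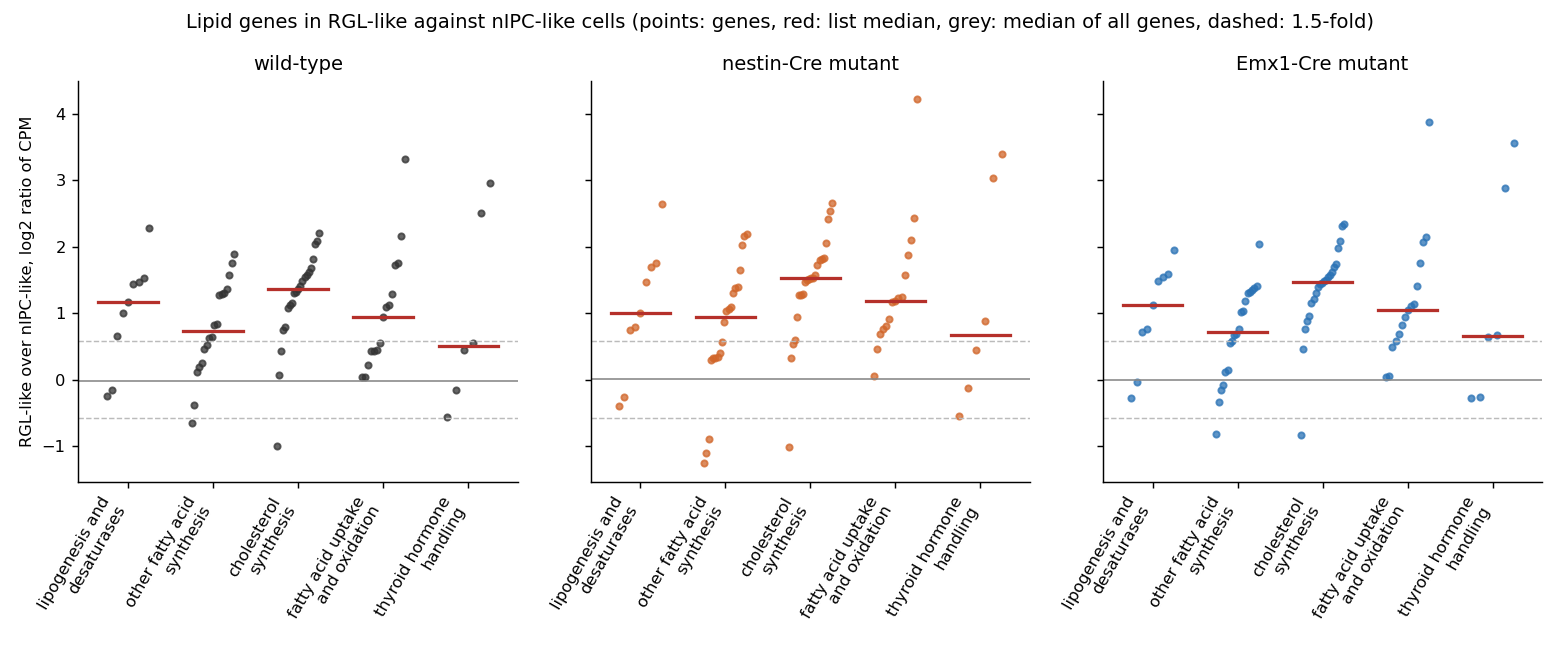
Log2 ratio of CPM in RGL-like over nIPC-like cells for each gene of 5 lists with at least 100 UMIs, 1 panel per library. Red lines are list medians, the grey line is the median of all genes and dashed lines mark 1.5-fold. The cholesterol synthesis median lies at 1.36, 1.52 and 1.47.

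Against astrocyte-like cells the direction was the opposite. Other fatty acid synthesis genes were at least 1.5-fold lower in RGL-like cells in 11 of 22 cases in wild-type, 10 of 20 in the nestin-Cre mutant and 10 of 23 in the Emx1-Cre mutant, and none was higher by that much. Of all genes, 10%, 8.84% and 9.68% were lower by that much. Cholesterol synthesis genes passed in 7 of 23, 3 of 22 and 4 of 23 cases. Of the members, 2, 3 and 3 of 9 were lower by 1.5-fold, Scd1 and Scd2 in every library, and Thrsp alone was higher.

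Mutant and wild-type libraries were then compared within a class, for genes with at least 100 UMIs over both. Both comparisons share the wild-type library, there is 1 library per genotype, and no test can be made. In RGL-like, nIPC-like, neuroblast-like and astrocyte-like cells no member differed by 1.5-fold or more in either mutant. The share of all genes that did, in the order nestin-Cre and Emx1-Cre mutant, was 11% and 5.62% in RGL-like, 11% and 6.64% in nIPC-like, 16.8% and 9.62% in neuroblast-like and 7.66% and 4.46% in astrocyte-like cells. The member closest to the limit was Thrsp in RGL-like cells, at 1.496 (1.409 to 1.587) and 1.218 (1.147 to 1.293) times wild-type. Thrsp was also above wild-type by more than the counting interval in nIPC-like cells (1.26 and 1.18) and neuroblast-like cells (1.21 and 1.33), but not in granule neuron-like cells, described below. The neuroblast-like levels of Thrsp were near those of microglia-like cells. In astrocyte-like cells it was 1.21 (1.09 to 1.34) and 1.01 (0.912 to 1.11).

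**Figure D3:**
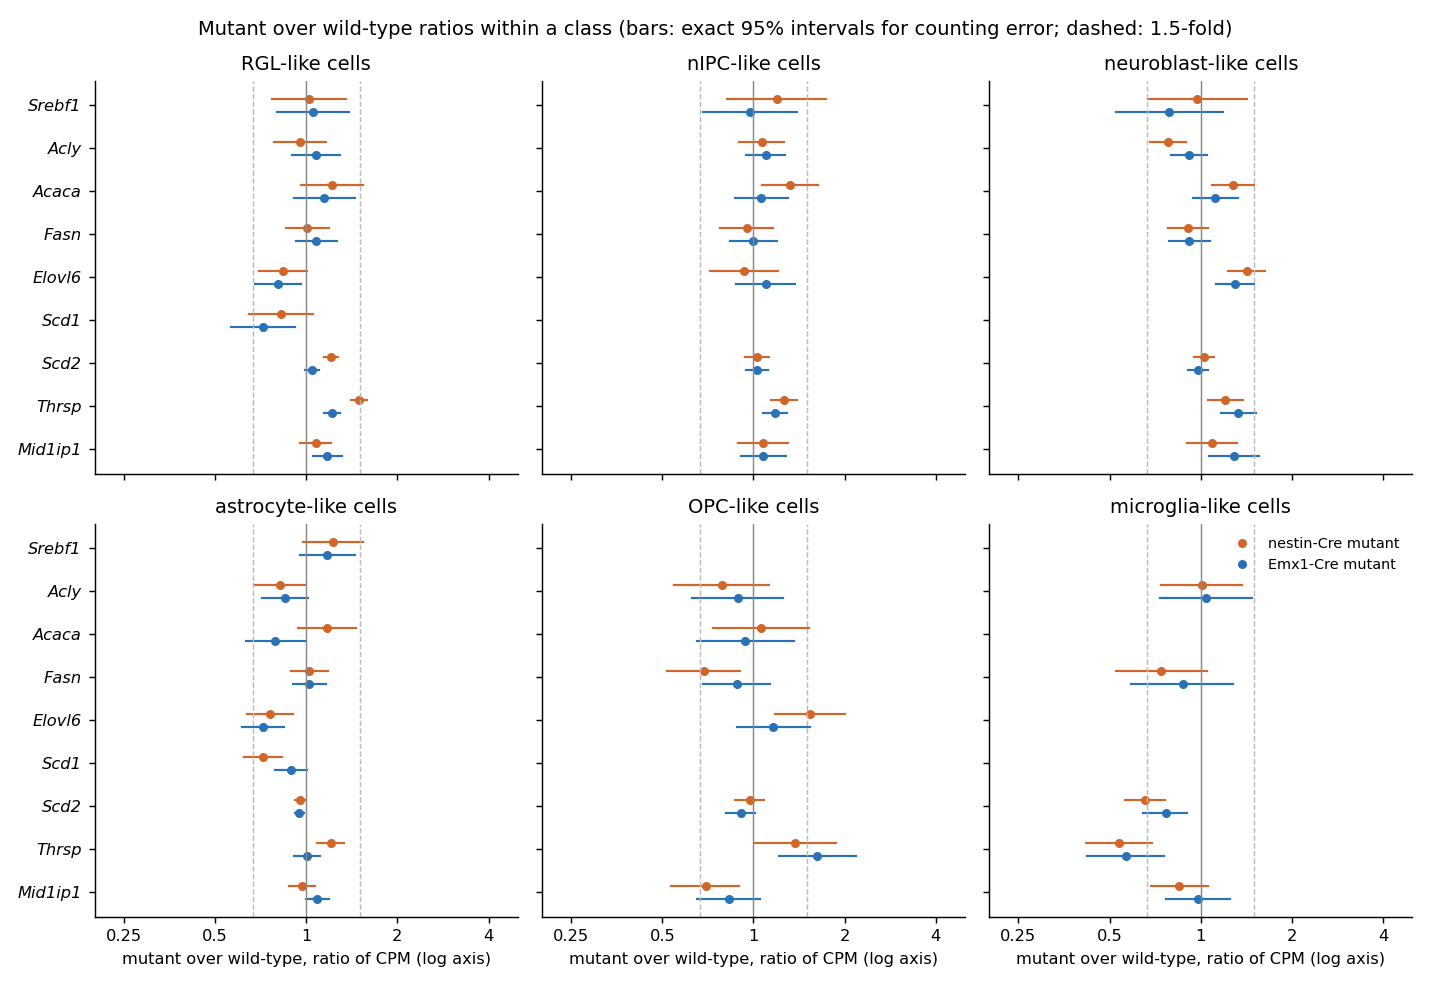
Ratio of CPM in each mutant library over the wild-type library for the members with at least 100 UMIs, in 6 classes, on a log axis. Bars are exact 95% intervals for counting error and dashed lines mark 1.5-fold. Thrsp lies above 1 in RGL-like, nIPC-like, neuroblast-like and OPC-like cells and below 1 in microglia-like cells, and the OPC-like ratios turn below 1 without the cells of highest doublet score.

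Scd1 and Scd2 stayed within 1.5-fold of wild-type in RGL-like, nIPC-like, neuroblast-like and astrocyte-like cells, where they had enough UMIs. Some of their counting intervals left out 1. Scd2 in RGL-like cells was 1.204 (1.141 to 1.27) and 1.05 (0.991 to 1.10) times wild-type, and in nIPC-like cells 1.03 (0.937 to 1.13) and 1.03 (0.946 to 1.12) times. Scd1 was 0.827 (0.646 to 1.06) and 0.721 (0.565 to 0.920) times wild-type in RGL-like cells and 0.721 (0.624 to 0.832) and 0.891 (0.789 to 1.01) times in astrocyte-like cells. Elovl6 was 1.42 (1.23 to 1.63) and 1.297 (1.123 to 1.499) times wild-type in neuroblast-like cells but 0.760 (0.639 to 0.903) and 0.722 (0.616 to 0.845) times in astrocyte-like cells. Fasn in RGL-like cells was 1.01 (0.856 to 1.19) and 1.08 (0.923 to 1.26) times wild-type. Acaca was above the counting interval in the nestin-Cre mutant, at 1.32 (1.07 to 1.63) in nIPC-like and 1.275 (1.086 to 1.499) in neuroblast-like cells, while the Emx1-Cre mutant stood at 1.06 (0.870 to 1.30) and 1.12 (0.943 to 1.32).

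Larger ratios were found in other classes. The granule neuron-like class is named for the end of the neuronal lineage. All 9 neuroblast markers were detected in it in each library, at a summed 9761, 10300 and 10730 CPM. In this class 3 of 5 members differed by 1.5-fold in the nestin-Cre mutant, against 17.3% of all genes. Thrsp was at 0.526 (0.349 to 0.809) times wild-type, from 34 UMIs in wild-type and 83 in the mutant, Fasn at 1.56 (0.947 to 2.71) and Acaca at 0.663 (0.421 to 1.07). The intervals of Fasn and Acaca include 1. The Thrsp levels, 126 CPM in wild-type and 66.3 CPM in the nestin-Cre mutant, were near those of microglia-like cells. In the Emx1-Cre mutant only Scd2 and Elovl6 had enough UMIs, and neither differed by that much, against 9.11% of all genes. The wild-type class held 86 cells, and its summed RGL markers were 345 CPM, against 229 and 219 CPM in the mutants, with 8, 10 and 9 of 10 detected and Vnn1 and Padi2 at 0 in wild-type. Their part in the lower Thrsp was not tested.

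In OPC-like cells 1 of 7 members differed by 1.5-fold in each mutant, Elovl6 at 1.54 (1.18 to 2.01) in the nestin-Cre mutant and Thrsp at 1.62 (1.21 to 2.18) in the Emx1-Cre mutant, against 16.5% and 7.07% of all genes. Summed RGL markers in OPC-like cells were 1196, 790 and 994 CPM, with 8 or 9 of 10 detected and Vnn1, Wnt8b or Padi2 at 0 in at least 1 library. The OPC-like Thrsp ratios did not hold without the 6% of cells with the highest doublet scores, where the log2 ratios were -0.42 and -0.07. In microglia-like cells 2 of 5 members in the nestin-Cre mutant and 1 of 5 in the Emx1-Cre mutant differed by that much, all of them lower, against 16% and 9.43% of all genes. Thrsp was 121 CPM in wild-type, 64.9 CPM in the nestin-Cre mutant and 68.5 CPM in the Emx1-Cre mutant, which gives 0.538 (0.418 to 0.690) and 0.567 (0.421 to 0.757). Scd2 was 0.656 (0.564 to 0.762) and 0.765 (0.646 to 0.904) times wild-type. Markers of other cells moved with these values: the 10 RGL markers together stood at 657, 346 and 395 CPM in microglia-like cells, with 9, 9 and 10 of them detected and Vnn1 at 0 in wild-type and in the nestin-Cre mutant. The 5 haemoglobin and erythroid genes stood at 192, 42.9 and 45.7 CPM. Their part in the lower Thrsp and Scd2 was not tested.

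Of the pathway lists, cholesterol synthesis in neuroblast-like and microglia-like cells is given here, chosen after its values were seen. In the nestin-Cre mutant 18 of 19 of its genes were below wild-type and 9 were at least 1.5-fold lower, with a median log2 ratio of -0.55 against -0.01 for all genes, of which 8.02% were lower by that much. In the Emx1-Cre mutant 15 of 20 were below wild-type and 2 at least 1.5-fold lower, with a median of -0.19 against 0.04 and a background of 3.5%. In microglia-like cells 7 of 10 and 2 of 10 were at least 1.5-fold lower, against 9.96% and 5.97% of all genes. The median in RGL-like cells was 0.09 and 0.18 against 0.06 for all genes in both mutants. In the nestin-Cre mutant the medians of nIPC-like, astrocyte-like and OPC-like cells were negative too, at -0.21, -0.20 and -0.12. In the Emx1-Cre mutant they were 0.01, -0.0 and 0.08. Lower values were thus not particular to neuroblast-like and microglia-like cells in the nestin-Cre mutant. Summed RGL markers within neuroblast-like cells were also lower in the mutants, at 281, 182 and 233 CPM, with 10, 10 and 9 of 10 markers detected and Vnn1 at 0 in the Emx1-Cre mutant, and their part in the cholesterol genes was not tested.

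In neurospheres, Larp7 stood at 42.8 and 35.0 CPM in the WT cultures and at 4.16, 6.35 and 4.39 CPM in the L7_KO cultures. Counts per culture summed to between 59821311 and 62474602. By edgeR's quasi-likelihood test with Benjamini-Hochberg adjustment, 6 of 17753 genes passed an adjusted p of 0.05 (0.0338%), 3 of them higher (0.0169%) and 3 lower (0.0169%) in L7_KO. At an unadjusted p under 0.05 there were 1849 higher (10.4%) and 1997 lower (11.2%) genes, and DESeq2 called 728 (4.95%) and 863 (5.87%) of the 14697 genes it gave an adjusted p. Nothing in the labels says that cultures came from separate animals, so p-values measure only the spread between these samples. In such bulk RNA, fewer cells of a type and less RNA per cell cannot be told apart.

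Scd4 had the largest difference of the 10 members. It stood at 9.90 and 6.35 CPM in WT (596 and 383 reads) and at 1.11, 0.842 and 0.874 CPM in L7_KO (66, 52 and 55 reads). The highest L7_KO culture lay below the lowest WT culture, and the log2 difference was -3.11 (SE 0.262), 8.62-fold lower. It was the only member among the genes called, but it was chosen for its lower counts, so the call is no test of it. The call was lost without the filter on low counts, with the replicate block and without any 1 of the 3 L7_KO cultures, while the log2 difference stayed between -3.24 and -3.03 in these fits. Scd4 is a minor desaturase here in any genotype: per kilobase of its 3072 exonic bases it stood at 2.07 to 3.22 CPM in WT, against 150 to 152 for Scd1 and 1137 to 1234 for Scd2. Reads that fit more than 1 of the related Scd genes could be split or dropped by the counting, and whether strand was used was not stated.

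The abundant desaturases were lower by a smaller amount. Scd1 stood at 733 and 727 CPM in WT and at 606, 470 and 558 CPM in L7_KO, a log2 difference of -0.42 (SE 0.113). Scd2 stood at 6200 and 6731 CPM in WT and at 5281, 4247 and 4958 CPM in L7_KO, a log2 difference of -0.42 (SE 0.129). In both genes every L7_KO culture lay below both WT cultures. Scd3, the remaining gene of the cluster, ran the other way, with 6.13 and 1.33 CPM in WT and 6.53, 12.96 and 6.60 CPM in L7_KO (log2 difference 1.22, SE 0.636).

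**Figure D4:**
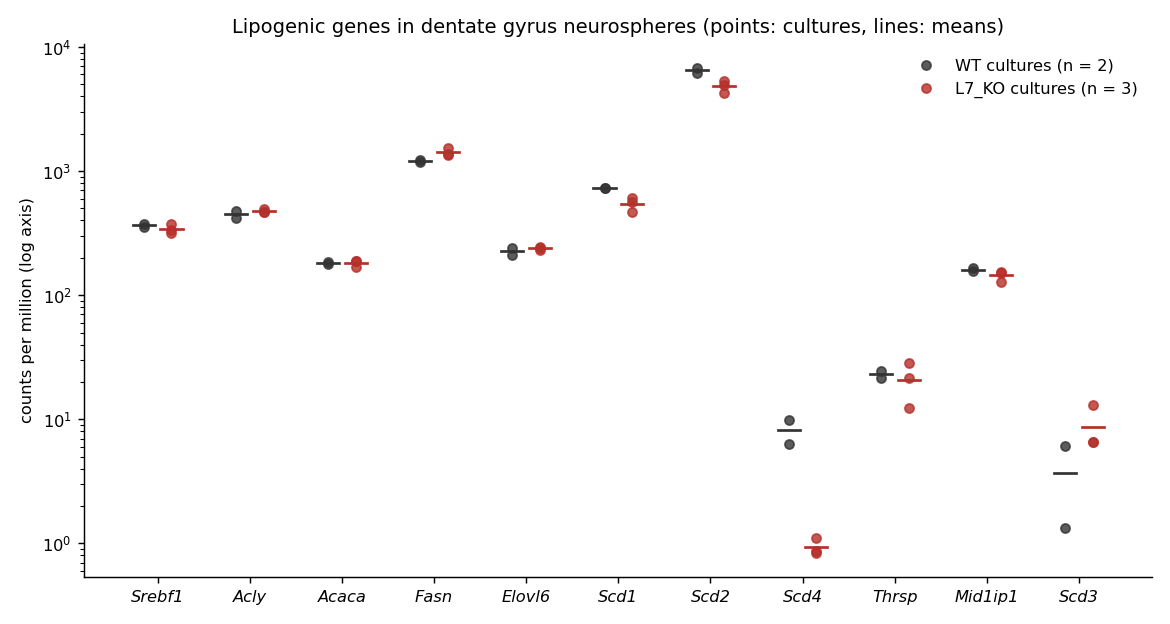
CPM of the 10 members and Scd3 in each neurosphere culture on a log axis, with WT (n = 2) and L7_KO (n = 3) beside each other and lines at the group means. Scd4 lies at 6.35 CPM or more in WT and at 1.11 CPM or less in L7_KO, while Thrsp, Acly, Acaca, Elovl6 and Srebf1 overlap.

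Fasn was the only member whose L7_KO cultures all lay above WT, at 1237 and 1176 CPM in WT and 1529, 1350 and 1378 CPM in L7_KO, a log2 difference of 0.24 (SE 0.0913). Mid1ip1 stood at 165 and 156 CPM in WT and at 151, 129 and 153 CPM in L7_KO, lower in each culture by a small margin. Thus 5 of the 10 members had groups that did not overlap, beside 42.6% of all genes tested.

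The other 5 members overlapped between genotypes. Thrsp stood at 21.5 and 24.5 CPM in WT and at 28.2, 12.3 and 21.4 CPM in L7_KO, with the second L7_KO culture lowest. Acly (417 to 480 CPM in WT, 465 to 493 CPM in L7_KO), Acaca (178 to 186 and 169 to 190.0 CPM), Elovl6 (209 to 241 and 230.0 to 242 CPM) and Srebf1 (356 to 374 and 318 to 371 CPM) had log2 differences between -0.10 and 0.08.

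Of the other lipid genes, none passed the edgeR test in neurospheres. Among 31 other fatty acid synthesis genes 19 were below and 12 above WT, with a median log2 difference of -0.12 against 0.01 for all genes, of which 49.2% were below WT. At an unadjusted p under 0.05 there were 12 lower and 1 higher, beside 11.2% and 10.4% of all genes, and DESeq2 called 4 lower and 1 higher, beside 5.87% and 4.95%. The shares over all genes are the same for the lists that follow, where a DESeq2 count is 1 to 4 genes. Of 24 cholesterol synthesis genes, 17 were below WT (median -0.10), 6 were lower at an unadjusted p under 0.05, none was higher, and DESeq2 called 4 lower. Of 22 fatty acid uptake and oxidation genes, 20 were below WT (median -0.17), with 5 lower and 1 higher at an unadjusted p under 0.05 and 2 lower by DESeq2. Of 10 thyroid hormone handling genes tested, 8 were below WT (median -0.24), with 2 lower and none higher at an unadjusted p under 0.05 and 1 lower by DESeq2.

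Some of the genes called by DESeq2 alone are named here after their values were seen. Tm7sf2, a sterol reductase gene, stood at 79.7 and 76.1 CPM in WT and at 46.8, 40.3 and 45.2 CPM in L7_KO (DESeq2 log2 difference -0.82, SE 0.109, adjusted p 5.22e-11, against an edgeR adjusted p of 0.0657). Acss2, which makes acetyl-CoA from acetate, stood at 121 and 115 CPM in WT and at 84.3, 74.3 and 79.7 CPM in L7_KO (DESeq2 -0.57, SE 0.0972, adjusted p 1.14e-06, edgeR adjusted p 0.082). The 1 higher gene was Acacb, the second acetyl-CoA carboxylase, at 1.16 and 1.21 CPM in WT and 3.07, 2.75 and 3.02 CPM in L7_KO (DESeq2 1.32, SE 0.304, adjusted p 0.000802, edgeR adjusted p 0.0933).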

How the data were processed

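Per the labels and file headers, the authors deposited raw UMI counts per gene and cell barcode from Cell Ranger for the 3 P7 libraries, and a table of raw read counts per gene for the neurospheres. The submitters' processing notes name mm10 and featureCounts, and the study's methods give Minimap2 against an Ensembl mouse transcriptome. Among its columns, 5 matched samples and 5 others were not used. ATAC-seq and CUT&Tag samples were not analysed here.

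The members and gene lists were chosen with earlier results of these data known. Members were matched by symbol and by Entrez identifier (39373 of 40814 identifiers had a RefSeq symbol). Cells with over 500 genes and under 15% mitochondrial counts (the study's filter, which left fewer cells here than the study states) were scored for 17 marker lists (mean z-score of log-normalized values, limited to 5). A cell took the class of its highest score if at least 3 of its markers were detected and the score led the next by 0.1. These limits were set after seeing the data, and 7.80% to 10.8% of cells lay within 0.05 of the second limit. Classes with at least 20 cells in each library were described. Doublets were kept, since Scrublet scores served only as an alternative. UMIs were summed per class and library. Intervals are exact Poisson, binomial or conditional 95% intervals and cover counting error only, and a count of 0 allows up to 3 counts. Genes named beside the members were the 5 most correlated with Thrsp, Scd1 and Scd2, Larp7 and pathway genes past the edgeR test, of which there were none. Pathway genes named by DESeq2 or by class ratios were picked after their values were seen.

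Neurosphere counts were tested with edgeR 4.0.16 (TMM, filterByExpr, quasi-likelihood test) in R 4.3.3, with DESeq2 1.42.0 as the alternative, and log2 differences are L7_KO minus WT. The scripts were tested on simulated data. Cultures of 1 group differed by more than counting noise (chi-square over degrees of freedom of 18.7 to 61), and the biological coefficient of variation was 19.4%. Python 3.11.15, scipy 1.17.1 and scanpy 1.11.5 were used for single cells. Coordinates and promoter sequences are from RefSeq, GRCm38.p6.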

Additional observations from a re-analysis of the deposited data

Results flagged for a closer look

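The ratio of Thrsp over wild-type ran in opposite directions in different classes, in both mutants and beyond the counting intervals. In the nestin-Cre and Emx1-Cre mutant it was above wild-type in RGL-like cells (1.496 and 1.218), nIPC-like cells (1.259 and 1.178), neuroblast-like cells (1.206 and 1.33) and OPC-like cells (1.376 and 1.621), the last turning below wild-type without the cells of highest doublet score. In microglia-like cells, whose Thrsp level was near that of neuroblast-like cells, the ratio was below wild-type (0.538 and 0.5674). Summed RGL markers in microglia-like cells were lower in the mutants too, at 657, 346 and 395 CPM, and their part was not tested. In granule neuron-like cells the Thrsp ratio was also below wild-type in the nestin-Cre mutant (0.526, interval 0.349 to 0.809). Its levels there, 126 and 66.3 CPM, were near the microglia-like 121 and 64.9 CPM. The Emx1-Cre mutant had too few UMIs to be compared in that class. The difference between classes was not tested, as each genotype has 1 library and both ratios share the wild-type library.

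Elovl6 likewise stood above wild-type in neuroblast-like cells (1.417 and 1.297) and below it in astrocyte-like cells (0.76 and 0.7219). This difference was not tested either.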

How the results depend on the processing

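For all neurosphere genes, the 3 higher and 3 lower calls became 728 and 863 with DESeq2, 1 and 2 without the filter on low counts, and 0 and 0 with the replicate block. Replicate numbers of the 2 pairs deviated with r of -0.01 and 0.09, so they were not taken as pairs. Leaving out 1 culture at a time gave 0 to 1050 higher and 0 to 855 lower, and the upper values came from the fit without WT replicate 1, where the single WT culture is assumed to vary like the L7_KO cultures. Without any 1 L7_KO culture, no gene was called among other fatty acid synthesis, cholesterol synthesis, fatty acid uptake and oxidation or thyroid hormone handling genes. DESeq2 called 1 higher and 4 lower, 4 lower, 2 lower and 1 lower in these lists. The causes were not tested. The log2 difference of Scd4 ranged from -3.39 to -2.75 over all settings. Its call was kept with DESeq2 and lost in the 5 settings named above for Scd4. As Scd4 was chosen for its lower counts, the call adds no support to the difference.

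For log2 ratios between classes, in the order wild-type, nestin-Cre and Emx1-Cre mutant, Thrsp in RGL-like over nIPC-like cells became 0.65, 1.18 and 0.97 with Leiden clusters and 1.68 in wild-type when thinned to 1500 UMIs. Scd2 in astrocyte-like over nIPC-like cells became 2.74 and 2.66 (wild-type and Emx1-Cre) with Leiden clusters, 2.72 in wild-type with the stricter gate and 2.62 in the Emx1-Cre mutant without high doublet scores. Scd1 in astrocyte-like over RGL-like cells became 1.11 in the thinned nestin-Cre mutant. Differences of mean log-normalized values, which are on a natural log scale per cell, were 0.62, 1.01 and 0.85 for Thrsp, 1.43, 1.56 and 1.60 for Scd2, 0.27, 0.20 and 0.35 for Scd1 and 0.20, 0.45 and 0.42 for Elovl6 in granule neuron-like over nIPC-like cells. All kept their direction.

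Over 6 classes, the counts of members at least 1.5-fold from wild-type (nestin-Cre 1 higher and 2 lower, Emx1-Cre 1 higher and 1 lower) changed as follows. Nestin-Cre higher became 2 without the haemoglobin list (an alternative chosen after seeing the data), without high doublet scores and when thinned, and nestin-Cre lower became 1 with the stricter gate and with Leiden clusters. Emx1-Cre higher became 2 with over 1000 genes and when thinned and 0 without high doublet scores, where lower became 2. Without high doublet scores the log2 ratio of Thrsp in OPC-like cells turned to -0.415 and -0.074. By mean log-normalized values Scd2 in astrocyte-like cells turned from below to above wild-type (0.17 and 0.19). Of the single members' mutant ratios under these alternatives, 551 stayed within the counting interval and 59 moved beyond it. A further 4, whose counting interval left out 1, turned direction. Turns of ratios whose interval included 1 were not counted apart.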

Other observations

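The gene most like Thrsp over classes, Ndufc2, is its neighbour: it encodes a subunit of respiratory complex I and ends 5132 bases from Thrsp, on the opposite strand, at chr7:97400003-97407800. Its mean level was 1105 CPM in RGL-like, 687 CPM in nIPC-like and 441 CPM in neuroblast-like cells. RGL-like cells held 1.57, 1.68 and 1.60 times the nIPC-like level in wild-type, the nestin-Cre mutant and the Emx1-Cre mutant. The 37 other nuclear complex I genes had median ratios of 1.04, 1.04 and 1.04 and highest ratios of 1.46, 1.36 and 1.40, so none reached Ndufc2 in any library. Against neuroblast-like cells Ndufc2 stood at 2.36, 2.66 and 2.53, again above all 37. In neurospheres Ndufc2 was 100.2 and 94.8 CPM in WT and 108, 88.4 and 101 CPM in L7_KO. This pair was picked after the correlations were seen.

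Thyroid hormone handling held 2 genes with large ratios in RGL-like over nIPC-like cells in all 3 libraries, named after their values were seen. Slco1c1, a thyroxine transporter gene, had log2 ratios of 2.96, 3.40 and 3.57, and Dio2, the activating deiodinase gene, 2.51, 3.04 and 2.89. Fabp7, a fatty acid binding protein gene of radial glia, had 3.32, 4.22 and 3.88.

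In Cajal-Retzius-like cells Scd2 was 704 CPM in wild-type, against 170 and 188 CPM in the mutants, from 23, 91 and 28 cells. The wild-type cells of this class had a median of 1636 UMIs, against 5759 and 6940.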
